A study of Homo sapiens with 6 samples.

Results

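H660, a neuroendocrine prostate cancer line, was compared with C4-2B MDVR, an enzalutamide-resistant prostate adenocarcinoma line, over all 6 messenger RNA libraries of the study, 3 from each line. The 3 H660 libraries carried a control siRNA, PLXND1 siRNA 1 and PLXND1 siRNA 2, and the 3 C4-2B MDVR libraries carried the same 3 siRNAs. PLXND1 encodes a plexin, a membrane receptor that semaphorins bind. No other genotype, drug treatment or time point is given in the labels. C4-2B MDVR was derived from C4-2B, a bone-metastatic derivative of LNCaP, through long-term growth in enzalutamide, which blocks androgen signalling. H660 is NCI-H660, a line from a metastasis of a small-cell cancer of the prostate. Each state is represented by 1 line, so the neuroendocrine state and any other property of H660 cannot be told apart. Nothing in the labels ties the libraries to separate cultures, so p-values measure only the spread between these libraries, which also holds the effect of the siRNAs.

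Prostate luminal cells and most prostate cancers depend on androgen, a hormone whose signal drives secretory genes such as KLK3, which encodes prostate-specific antigen. Under drugs that block this signal some tumours find ways to keep it, whereas others lose it and take on a neuroendocrine state. Neuroendocrine cells are driven by neural and endocrine transcription factors such as INSM1, and they store hormones and peptides in dense-core granules whose release uses the same machinery as synaptic vesicles.

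Levels are FPKM, fragment numbers scaled to exon length and library size. Library depth was 17655802 to 24105369 fragments assigned to genes. A difference is H660 minus C4-2B MDVR on the log2(FPKM + 1) scale, given ± SE. It understates the change of genes near 0. A gene was called when limma's adjusted p (Benjamini-Hochberg, two-sided, with treatment as a covariate) was under 0.05 and the difference was at least 2-fold. The C4-2B MDVR control had a lower mitochondrial share of fragments, 3.38% against 6.83% to 9.64% in the other 5 libraries. In addition, several antiviral genes and CDKN1A were higher in both C4-2B MDVR knockdown libraries than in its control, and the values of the control pair are given beside results that this touches. Genes that overlap others appear to be undercounted in both lines. PRC1, which dividing cells need for cytokinesis, was listed at 0.156 to 0.616 FPKM in all 6 libraries. A low value shared by both lines is therefore not read as absence here.

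The lines differed across a large part of the transcriptome. Of 15638 genes tested, 3143 were called higher in H660 (20.1%) and 2803 lower (17.9%), together 38.0%. These shares are the background for the counts of lists and families below. Only genes with a mean of at least 1 FPKM in at least 1 line were tested. A list member near 0 in 1 line was thus counted only when it reached that mean in the other. The 3 values of H660 and the 3 of C4-2B MDVR did not overlap in 11656 genes (74.5%), and in 5912 of the 5946 called genes. In 4271 called genes the difference was at least 2-fold in each of the 3 pairs of libraries with the same siRNA. A difference of at least 8-fold was called in 423 genes higher and 249 lower in H660. The median difference over all genes tested was −0.0035, but it depended on the scaling. It was 0.26 when mitochondrial genes were left out and the libraries rescaled, which gave 3931 genes higher and 2145 lower, and 0.17 with limma's voom on recovered fragments. C4-2B MDVR libraries varied more among themselves, with a median SD of 0.187 log2 units per gene against 0.121 in H660. A test of whether the line difference depended on the treatment called 0 genes with limma at an adjusted p under 0.05, against 701 at an unadjusted p under 0.05. It had 2 residual degrees of freedom, with spread from the knockdown libraries alone, so it could miss such dependence.

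**Figure D1:**
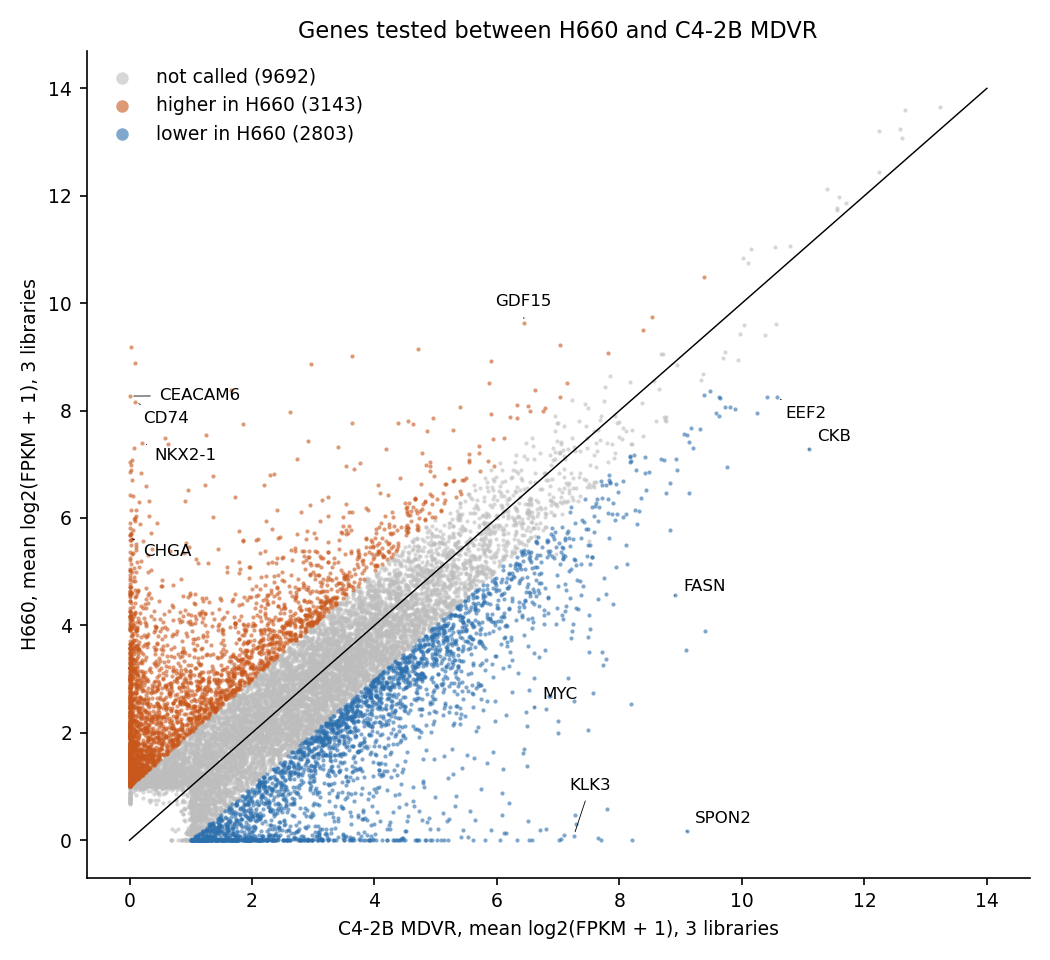
Mean log2(FPKM + 1) of each of the 15638 genes tested, C4-2B MDVR on the horizontal axis and H660 on the vertical axis, 3 libraries each. Orange points are the 3143 genes called higher in H660, blue points the 2803 called lower and grey points the rest. CEACAM6, CD74 and NKX2-1 lie along the vertical axis and KLK3 and SPON2 along the horizontal axis.

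Androgen-regulated secretory genes were far apart between the lines. KLK3 was at 197, 228 and 77.5 FPKM in C4-2B MDVR and at 0.104, 0.0459 and 0.0335 FPKM in H660. Its C4-2B MDVR values were uneven, lowest with siRNA 2, yet the smallest was far above the largest H660 value, and the difference was −7.17 ± 0.38 (limma adjusted p = 2.3e-05). Of 36 androgen-regulated genes, 33 were tested, of which 26 were lower in H660 and 2 higher, with a median of −3.58. FOLH1, which encodes prostate-specific membrane antigen, was at 211 ± 88.8 FPKM in C4-2B MDVR and 0.0318 ± 0.0182 in H660 (SD, n = 3 each). TMPRSS2, a serine protease gene, was at 135, 263 and 101 FPKM against 0.423, 0.362 and 0.355. The cochaperone gene FKBP5 was at 91.9 against 6.0 FPKM on average and the kinase gene CAMKK2 at 99.2 against 7.17, so both remained measurable in H660. The 5 tested members that were not called were ACPP, NCAPD3, ZBTB10, AMACR and NDRG1. NDRG1 was at 18.2 to 26.5 FPKM in C4-2B MDVR and 15.8 to 19.7 in H660, and the groups overlapped. The channel gene TRPM8 and the transcription factor gene MAF were the only members called higher, at 1.54 and 2.41 log2 units.

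Luminal transcription factors were more often lower than higher in H660. Of 15 tested luminal transcription factors 8 were lower and 2 higher (median −1.44), beside 17.9% and 20.1% of all genes tested. HOXB13, the prostate HOX factor, was at 160, 213 and 108 FPKM in C4-2B MDVR and 0.198, 0.184 and 0.336 in H660 (−6.98 ± 0.25, adjusted p = 6.0e-06). SPDEF, an ETS factor of secretory epithelium, was at 196, 250 and 225 FPKM against 0.464, 0.156 and 0.973. Both sets were apart without overlap. FOXA1, a pioneer factor that opens chromatin, was at 125, 103 and 123 FPKM in C4-2B MDVR and 79.0, 78.5 and 79.5 in H660, and its difference of −0.56 did not reach 2-fold. GRHL2, an epithelial factor, was lower at 15.9 against 45.4 FPKM (−1.44). The epithelial factors ELF3 and KLF5 were higher, ELF3 at 130, 126 and 151 FPKM in H660 against 2.93, 9.55 and 6.02, and KLF5 by 2.36 log2 units.

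Most neural and endocrine transcription factors that were tested were higher in H660. NKX2-1, a lung and thyroid homeobox factor also found in small-cell cancers, was at 184, 149 and 169 FPKM against 0.259, 0.0628 and 0.156. SOX2, a stem-cell and neural factor, was at 102, 119 and 134 FPKM against 0.0192, 0.0198 and 0. INSM1, a zinc finger repressor of endocrine cells, was at 17.6, 15.4 and 17.4 FPKM and listed at 0 in all C4-2B MDVR libraries. Against the level that 3 fragments over those 3 libraries would give, it was at least 904-fold higher in H660, a bound that covers counting error only. POU3F2, the neural factor BRN2, was at 9.35, 10.6 and 10.2 FPKM in H660. Of 42 neuroendocrine factors 22 were under the filter in both lines and 20 were tested. Of these, 17 were higher in H660, 2 lower and 1 not called, with a median of 2.13. Over all genes tested 20.1% were higher and 17.9% lower. Members near 0 in C4-2B MDVR could enter this count only through their level in H660. The lower ones were LHX2 and NKX2-2, both neural patterning factors, at 3.3 and 2.3 FPKM in C4-2B MDVR.

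Factors of other small-cell cancer types were low in both lines. NEUROD1, a proneural factor of some small-cell cancers, was at 0.0488 FPKM in the H660 control and listed at 0 in the other 5 libraries. POU2F3, which defines tuft cells, had means of 0.24 and 0.30 FPKM in H660 and C4-2B MDVR. MYCL was at 44.4, 39.5 and 38.2 FPKM in H660 against 4.91, 5.83 and 7.70, and MYC was at 3.92, 3.98 and 6.05 against 115, 54.0 and 146. The paralogs thus differed in opposite directions, by 2.56 ± 0.17 and −4.13 ± 0.38. The inhibitors of basic helix-loop-helix dimers were all higher in H660, ID1 at 465 against 6.90 FPKM, ID2 at 333 against 2.24, ID3 by 3.27 log2 units, and ID4 at 105, 143 and 134 FPKM against 0, 0.0636 and 0. REST, the repressor of neuronal genes, was at 3.26 to 3.75 FPKM in H660 and 7.44 to 8.28 in C4-2B MDVR, and its difference of −0.97 fell just short of 2-fold. It passed with a pseudocount of 0.1, at −1.13. SRRM4, a splicing factor that inactivates REST in some neuroendocrine tumours, was listed at 0 in all 6 libraries.

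Granule genes were mostly higher in H660. Of 18 tested genes of dense-core granules and prohormone processing, 14 were higher and 1 lower (median 2.47). CHGA, chromogranin A, was at 47.3, 45.8 and 50.6 FPKM in H660 and 0.0777, 0 and 0.0198 in C4-2B MDVR (5.57 ± 0.10, adjusted p = 1.1e-06). SCG3, secretogranin III, was at 50.9, 53.1 and 51.6 FPKM against 0, 0.0599 and 0. CHGB was at 17.1 FPKM on average and listed at 0 in C4-2B MDVR. The prohormone convertase genes PCSK1 and PCSK2 were higher by 3.61 and 2.58 log2 units. SYT4, a synaptotagmin, was the exception and was lower, at 6.68, 11.2 and 9.81 FPKM against 26.1, 69.3 and 28.4. CPE, carboxypeptidase E, overlapped between the lines (16.5 to 21.3 against 19.7 to 38.8 FPKM), so C4-2B MDVR was not without granule genes.

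Synaptic vesicle genes followed, with 22 of 31 tested higher and 3 lower (median 1.90). SYP, synaptophysin, was at 18.2, 16.2 and 16.8 FPKM in H660 against 0.324, 0.229 and 0.260 (3.83 ± 0.10). SNAP25, a SNARE protein, was at 24.5 ± 1.52 FPKM against 0.106 ± 0.0936 (SD, n = 3 each), and CPLX2, complexin 2, at 29.5 FPKM and listed at 0. The Rab GTPase genes RAB3A and RAB3D were lower in H660, by −2.08 and −2.05. Of 26 tested genes of neuronal cytoskeleton, adhesion and RNA binding, 20 were higher and 2 lower. UCHL1, a neuronal ubiquitin hydrolase, was at 170, 189 and 179 FPKM against 0.232, 0.413 and 0.917, and the tubulin TUBB2B at 70.0 against 0.0149 FPKM. MAPT, the tau gene, was lower in H660 by −1.87. Most ion channel and receptor genes were too low in both lines to be tested. Of 95 potassium channel genes 33 were tested, 19 higher and 5 lower. Of 26 glutamate receptor genes 7 were tested, 6 higher and 0 lower. Of 26 voltage-gated calcium channel genes 9 were tested, 4 higher and 1 lower, and of 19 GABA receptor genes 5, 2 higher and 1 lower. Over all genes tested 20.1% were higher and 17.9% lower.

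Few peptide hormones were on. Of 29 neuropeptide genes 8 were tested, 4 higher and 2 lower. GAL, galanin, was the most abundant of these and was higher in C4-2B MDVR, at 45.2, 35.1 and 48.0 FPKM against 0.342, 0.0327 and 0.0597 in H660. ADCYAP1, PTHLH, NTS and CALCB were higher in H660, with means of 1.9 to 4.0 FPKM.

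The sequences before the starts of KLK3, CHGA and SCG3 are shown because these genes mark the opposite ends of the comparison. They are the 250 bases before the RefSeq start, 5′ to 3′ on the plus strand, where all 3 genes lie (GRCh38.p14). Capitals in KLK3 (chr19:50854665-50854914) mark AGAACA, the core of an androgen response element, which starts 170 bases before the start, and TTTATA, the TATA box letters TATAAA read on the other strand, 28 bases before it. Capitals in CHGA (chr14:92922900-92923149) mark TGACGTC and its overlapping match on the other strand, the core of a cyclic AMP response element, from 54 bases before the start. Capitals in SCG3 (chr15:51681253-51681502) mark 2 copies of CAGCTG, an E-box, a site that basic helix-loop-helix factors can bind, 226 and 174 bases before the start.
KLK3: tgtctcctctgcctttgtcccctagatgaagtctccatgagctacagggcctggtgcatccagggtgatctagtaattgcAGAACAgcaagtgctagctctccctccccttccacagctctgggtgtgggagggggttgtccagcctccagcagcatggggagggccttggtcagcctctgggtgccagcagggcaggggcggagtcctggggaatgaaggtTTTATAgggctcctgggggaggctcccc
CHGA: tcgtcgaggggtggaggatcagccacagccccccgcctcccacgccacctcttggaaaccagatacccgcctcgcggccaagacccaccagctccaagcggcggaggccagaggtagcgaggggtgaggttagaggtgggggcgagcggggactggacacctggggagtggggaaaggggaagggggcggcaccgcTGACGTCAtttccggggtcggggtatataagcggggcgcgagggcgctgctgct
SCG3: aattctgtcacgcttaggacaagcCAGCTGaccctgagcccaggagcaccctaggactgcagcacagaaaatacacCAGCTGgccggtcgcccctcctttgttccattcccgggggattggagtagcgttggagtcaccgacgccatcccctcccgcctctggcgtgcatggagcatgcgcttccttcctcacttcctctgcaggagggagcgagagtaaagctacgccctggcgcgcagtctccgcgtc

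Across the genome, the shares of these letters were close between genes called higher and genes called lower, except for TATAAA. Of 12334 tested protein-coding genes, 10015 (81.2%) had a RefSeq promoter, 250 bases before to 50 after the start. CAGCTG was found in 16.8% of these promoters on either strand, in 18.3% of the promoters of genes called higher in H660 and in 18.1% of those called lower. AGAACA was found in 8.34%, 7.24% and 8.31%, and TGACGTC in 5.70%, 4.35% and 5.25%, of the same 3 sets. TATAAA was found in 5.36% of all, 8.27% of those higher and 5.58% of those lower. Low CpG content was more frequent among genes that differed. An observed over expected CpG ratio under 0.4 was found in 9.27% of all promoters, 6.73% of the genes not called, 16.4% of those higher and 11% of those lower. It reached 22.8% among genes at least 8-fold higher and 19.1% among those at least 8-fold lower. These shares are descriptions with no test. A match is a description of letters and was not tested as a binding site.

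**Figure D2:**
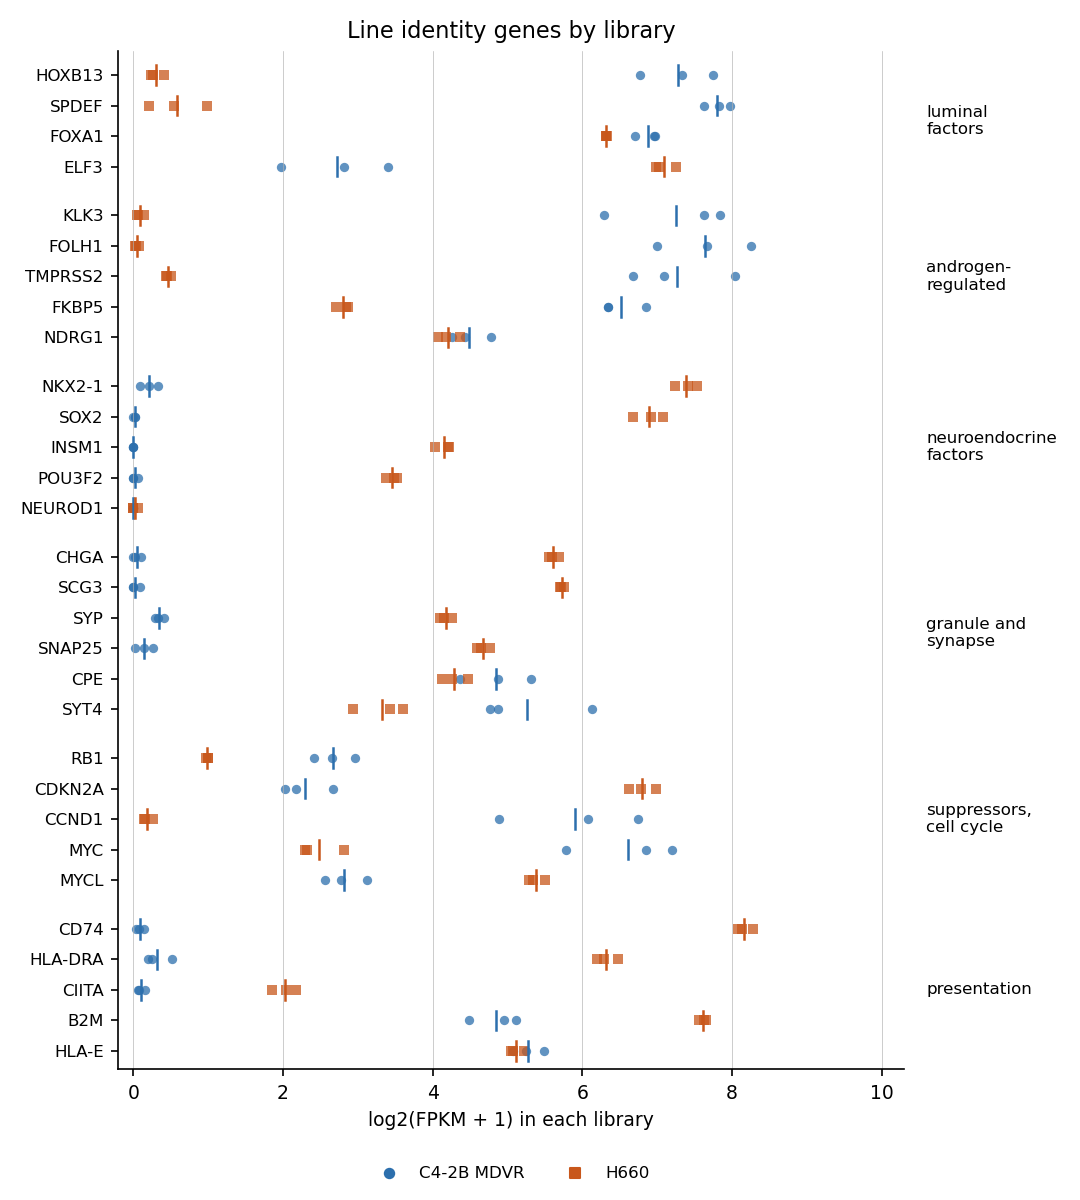
Level of genes that mark each line, as log2(FPKM + 1) on the horizontal axis, 1 point per library, with blue circles for C4-2B MDVR, orange squares for H660 and a vertical tick at each line's mean. INSM1 sits at 0 in C4-2B MDVR and KLK3 near 0 in H660, while FOXA1, NDRG1, CPE and HLA-E lie close together in both lines.

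The Notch pathway, by which neighbouring cells restrain proneural factors, had 6 of 17 tested genes higher and 4 lower, beside 20.1% and 17.9% of all genes tested. Its ligand genes DLL1 and DLL3 were higher in H660. DLL1 was at 94.8, 95.1 and 103 FPKM against 2.78, 3.20 and 4.96, and DLL3, an inhibitory ligand, at 36.0, 32.4 and 38.1 against 10.4, 6.66 and 8.65 (1.95 ± 0.15). Receptor NOTCH3 was lower, at 5.33, 4.33 and 5.06 FPKM against 31.8, 37.3 and 34.1. The target gene HES1 was at 9.03, 16 and 14.3 FPKM against 22, 30.6 and 38.2 (−1.15), and it missed 2-fold with quantile normalization (−0.97) and without mitochondrial genes (−0.87). HEY1, another target, was higher by 2.69.

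RB1, a tumour suppressor gene often lost in neuroendocrine prostate cancer, was lower at the RNA level in H660. It was at 1.00, 0.996 and 0.962 FPKM in H660 and 5.30, 6.76 and 4.31 in C4-2B MDVR (−1.68 ± 0.16, adjusted p = 0.00024). The sets did not overlap. DNA sequence and copy number were not measured. The p16 gene CDKN2A was higher, at 110, 97.8 and 126 FPKM against 5.37, 3.06 and 3.51, and so was CDKN2C, the p18 gene, at 159 ± 2.14 against 9.62 ± 0.606 (SD, n = 3 each). CCND1, cyclin D1, was at 0.10, 0.203 and 0.113 FPKM against 66.8, 106 and 28.5 (−5.72 ± 0.45), while cyclin E2 (CCNE2) was higher by 2.40. Over the list of 26 tested suppressor and G1 genes 7 were higher and 6 lower, beside 20.1% and 17.9% of all genes tested.

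Most proliferation genes were not called, and those called were more often higher than lower in H660. Of 33 replication genes 8 were higher and 2 lower (median 0.62), and of 31 tested mitosis genes 11 were higher and 1 lower (median 0.74). Over all genes tested, 20.1% were higher, 17.9% lower and 38.0% called either way. PCNA, the sliding clamp of DNA polymerase, was at 331, 338 and 332 FPKM against 99.3, 78.7 and 118. TOP2A, a topoisomerase, was at 102, 104 and 86.8 FPKM against 16, 11.1 and 21.3. MKI67, the proliferation marker Ki-67, was at 22.3, 18.3 and 15.7 FPKM against 14, 7.18 and 11.7, and its difference of 0.76 did not reach 2-fold. In the control pair alone, 7 of the 12 called mitosis genes kept a 2-fold difference. TK1, thymidine kinase, went the other way, at 33.2, 37.5 and 31.7 FPKM against 175, 124 and 172.

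A DNA damage-induced gene varied with the siRNAs in C4-2B MDVR. CDKN1A, the p21 gene, was at 92.6, 96.3 and 94.5 FPKM in H660 but at 47.5 FPKM in the C4-2B MDVR control and 422 and 346 in its knockdown libraries. H660 was thus above the control and below both knockdown libraries, and the fit gave −1.01 with an adjusted p of 0.16. Of 25 tested DNA damage-induced genes 2 were higher and 4 lower, beside 20.1% and 17.9% of all genes tested. Their median difference was −0.55 in the fit, 0.10 in the control pair and −0.67 and −0.86 in the siRNA 1 and siRNA 2 pairs. GDF15, a stress cytokine, was at 584, 843 and 1018 FPKM in H660 against 47.3, 90.4 and 148. Of 14 tested BCL2 family genes 3 were higher and 4 lower (median −0.35), beside 20.1% and 17.9% of all genes tested. BCL2 itself was higher, at 16.2, 14.8 and 13.4 FPKM against 0.361, 0.232 and 0.419. The proapoptotic gene BMF was also higher, at 96.9 ± 7.82 against 1.36 ± 0.404 FPKM (SD, n = 3 each).

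Antigen presentation had the largest share of members higher among the lists with at least 10 tested members. Of 23 tested genes of class I and class II presentation 20 were higher in H660 and 0 lower by limma, with a median of 2.15 against −0.0035 for all genes, and all 20 were at least 2-fold higher in the control pair as well. CD74, the class II invariant chain, was at 270, 279 and 311 FPKM against 0.0303, 0.109 and 0.0580 (8.07 ± 0.10, adjusted p = 8.85e-07). HLA-DRA, a class II chain, was at 77.5, 72.6 and 87.9 FPKM against 0.151, 0.427 and 0.192, and CIITA, the class II transactivator, at 3.52, 2.62 and 3.12 against 0.0465, 0.0550 and 0.116. B2M, the class I light chain, was at 187, 197 and 201 FPKM against 21.3, 33.6 and 30.0, and the immunoproteasome gene PSMB8 at 38.8 ± 3.10 against 0.235 ± 0.111 (SD, n = 3 each). HLA genes are close copies, and the counting of reads shared between them is not given in the sources used here. HLA-E and HLA-F were not called, with HLA-E at 32 to 36.2 FPKM against 32.8 to 44.1. The leukocyte gene PTPRC had means of 0.0077 and 0 FPKM in H660 and C4-2B MDVR, and CD3E was listed at 0 in all libraries. CD14, a monocyte gene, was higher in H660, at 1.80, 2.19 and 2.33 FPKM against 0.0767, 0 and 0.0653 (1.56 ± 0.13, adjusted p = 0.00012). The part of other cells in the result was not tested.

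Of 32 tested interferon-induced genes 8 were higher and 8 lower, beside 20.1% and 17.9% of all genes tested. Their median difference was 0.50 in the fit, 1.00 in the control pair and −0.0072 and −0.17 in the siRNA 1 and siRNA 2 pairs. OAS1, a sensor of double-stranded RNA, was at 14.5, 17.5 and 18.8 FPKM in H660 against 0.302, 3.48 and 3.22. IRF1, an interferon-response factor, was at 10.3 ± 0.740 against 0.926 ± 0.861 (SD, n = 3 each). OASL was at 0.0459, 0.0242 and 0.0441 FPKM in H660 and at 0.329, 19.3 and 22.2 in C4-2B MDVR, so its fitted −3.04 came from the knockdown libraries, and the control pair differed by −0.35. IFIT1 had the same pattern, with −0.20 in the control pair and −2.70 in the fit. Its call was lost without either H660 knockdown library or either C4-2B MDVR knockdown library (adjusted p 0.0506 to 0.0694), and that of OASL without either H660 knockdown library (adjusted p 0.0575 and 0.0606). Of the 16 called genes 10 kept a 2-fold difference in the control pair.

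**Figure D3:**
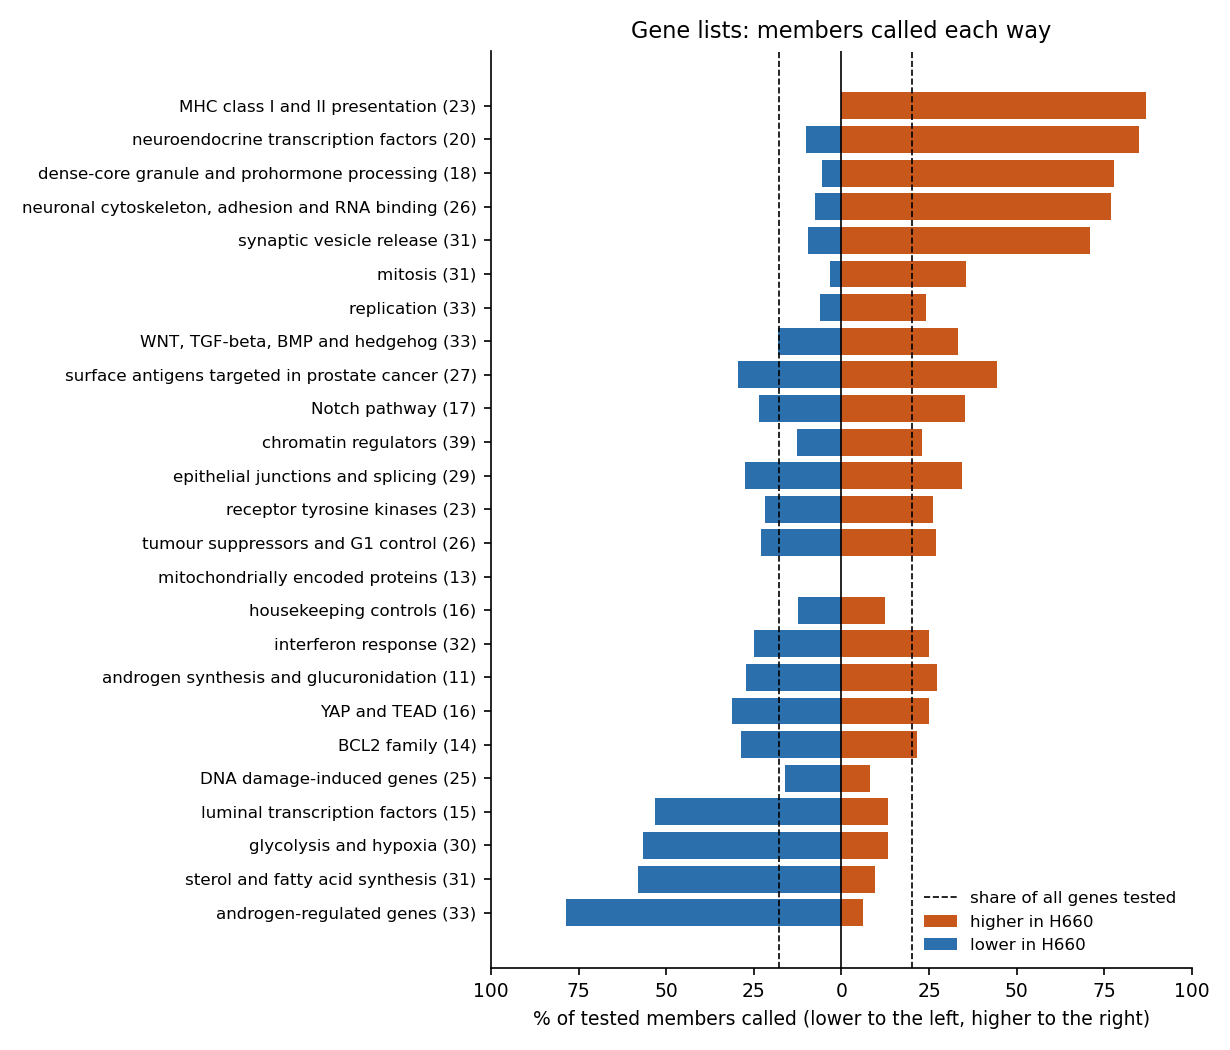
Share of tested members called lower (blue, to the left) and higher (orange, to the right) in H660, in %, for each list with at least 10 tested members, whose number is in brackets. Dashed lines mark the shares over all genes tested, 17.9% lower and 20.1% higher. Antigen presentation and the neuroendocrine lists extend to the right, and androgen-regulated genes, sterol and glycolysis genes to the left.

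Genes of lipid synthesis and of glycolysis were more often lower than higher in H660. Of 31 tested genes of sterol and fatty acid synthesis 18 were lower and 3 higher (median −1.12). FASN, fatty acid synthase, was at 26.7, 21.8 and 19.8 FPKM in H660 and 671, 483 and 336 in C4-2B MDVR (−4.34 ± 0.18, adjusted p = 9.3e-06). ACACA, which makes the building block for FASN, was at 3.14 ± 0.588 against 49.8 ± 4.91, and SREBF1, the master regulator of lipogenesis, at 13.8 ± 0.978 against 152 ± 33.8 FPKM (SD, n = 3 each). Of 30 tested glycolysis and hypoxia genes 17 were lower and 4 higher (median −1.37). GAPDH was at 260, 235 and 222 FPKM against 710, 830 and 841, and the aldolase gene ALDOC at 0.406 ± 0.232 against 69.2 ± 23. LDHB, a lactate dehydrogenase, was at 0.0271, 0 and 0.0390 FPKM against 14.6, 14.9 and 14.9. EPAS1, the hypoxia factor HIF-2 alpha, was higher in H660 by 3.12. None of the 13 mitochondrially encoded protein genes was called either way. Their median difference was 0.46 in the fit, 1.27 in the control pair and −0.01 and 0.25 in the siRNA 1 and siRNA 2 pairs.

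Translation genes were mostly lower in H660. Of 81 tested cytosolic ribosomal protein genes 56 were lower in H660 and 0 higher by limma, with a median of −1.37 that kept its sign under all scalings tried. RPL13A was at 237, 235 and 268 FPKM against 1187, 970 and 1531, and EEF2, translation elongation factor 2, at 304 ± 10.2 against 1586 ± 590 (SD, n = 3 each). The C4-2B MDVR values were uneven but did not reach the H660 range. CKB, brain-type creatine kinase, was the most abundant nuclear protein-coding transcript of C4-2B MDVR, at 1677, 3681 and 1681 FPKM against 175, 143 and 148. In H660 the lysosomal gene PSAP led, at 828, 845 and 909 FPKM against 316, 413 and 383.

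Of 29 tested epithelial junction and splicing genes 10 were higher and 8 lower (median 0.20), beside 20.1% and 17.9% of all genes tested. The claudin CLDN3 was at 533, 563 and 614 FPKM in H660 against 22.3, 28.3 and 25.6, and EPCAM, an epithelial adhesion molecule, at 244 ± 27.0 against 59.0 ± 7.02. E-cadherin (CDH1) was lower, at 26.3, 24.1 and 22.8 FPKM against 111, 145 and 163, as were plakoglobin (JUP, −3.21) and ZO-1 (TJP1, −3.12). Of 55 keratin genes 46 were under the filter in both lines and 9 were tested. Of these 9, 7 were higher and 0 lower, beside the same shares of all genes tested. KRT8 was at 236, 260 and 270 FPKM against 77.4, 134 and 74.8, while KRT18 at 155, 166 and 160 against 89.8, 120 and 79.5 did not reach 2-fold. VIM, vimentin, was low in both, at 0.83 FPKM in H660 and 2.9 in C4-2B MDVR. YAP1, the Hippo effector often absent from small-cell cancers, was at 1.51, 1.85 and 1.73 FPKM against 12.6, 22 and 13.8.

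Cell-surface genes differed in both directions. Of 27 tested surface antigens that are targets of prostate cancer drugs or imaging, 12 were higher and 8 lower in H660. This stands beside 20.1% and 17.9% of all genes tested. STEAP1, a metalloreductase, was at 0.0994, 0.34 and 0 FPKM in H660 against 104, 179 and 58.4, and LY6E at 0 in all 3 against 93.6, 87.8 and 90.2. CEACAM5 was at 146, 127 and 122 FPKM in H660 and 0 in all C4-2B MDVR libraries, at least 8395-fold apart. SEZ6, a neuronal surface protein, was at 45.7, 40.6 and 39.2 FPKM against 0.226, 0.505 and 0.169. CD276, the B7-H3 gene, was not called (−0.14). Of 23 tested receptor tyrosine kinase genes 6 were higher and 5 lower (median −0.32), beside 20.1% and 17.9% of all genes tested. RET and KIT were at 35.7 ± 2.93 and 17.7 ± 1.49 FPKM in H660 against 0.133 ± 0.0313 and 0.0119 ± 0.0206, and ERBB2 at 5.38, 4.71 and 5.47 against 45.2, 75.4 and 41.8. PLXND1 itself was at 9.13, 7.62 and 7.54 FPKM in H660 and 7.40, 1.57 and 3.10 in C4-2B MDVR. Its difference of 1.02 (adjusted p = 0.018) was 0.27 in the control pair, and the call was lost without C4-2B MDVR siRNA 1 (0.72), without either H660 knockdown library (0.91 and 0.92), with quantile normalization (0.98) and with no filter on low values (adjusted p = 0.0528).

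HOX genes, which set position along the body axis, differed by cluster. In the HOXB cluster 8 of 9 tested genes, HOXB2 to HOXB9, were higher in H660 while HOXB13, at the far end of the same cluster, was lower. HOXB2 was at 67.9, 56.3 and 63.0 FPKM against 0.0413, 0.106 and 0 (5.91 ± 0.11), and HOXB7 at 33.5, 29.7 and 30.0 against 5.05, 4.58 and 4.19. In the HOXC cluster all 5 tested genes, HOXC6, HOXC8, HOXC9, HOXC12 and HOXC13, were lower in H660, with HOXC6 at 0.0342, 0 and 0 FPKM against 8.23, 10.5 and 5.58. In HOXA 6 of 9 tested genes were higher and HOXA11 lower, led by HOXA9 at 13.4, 17.5 and 18.5 FPKM against 0.0796, 0.0164 and 0. In HOXD 4 of 5 were higher. Whether each cluster differs more than other linked genes was not tested.

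**Figure D4:**
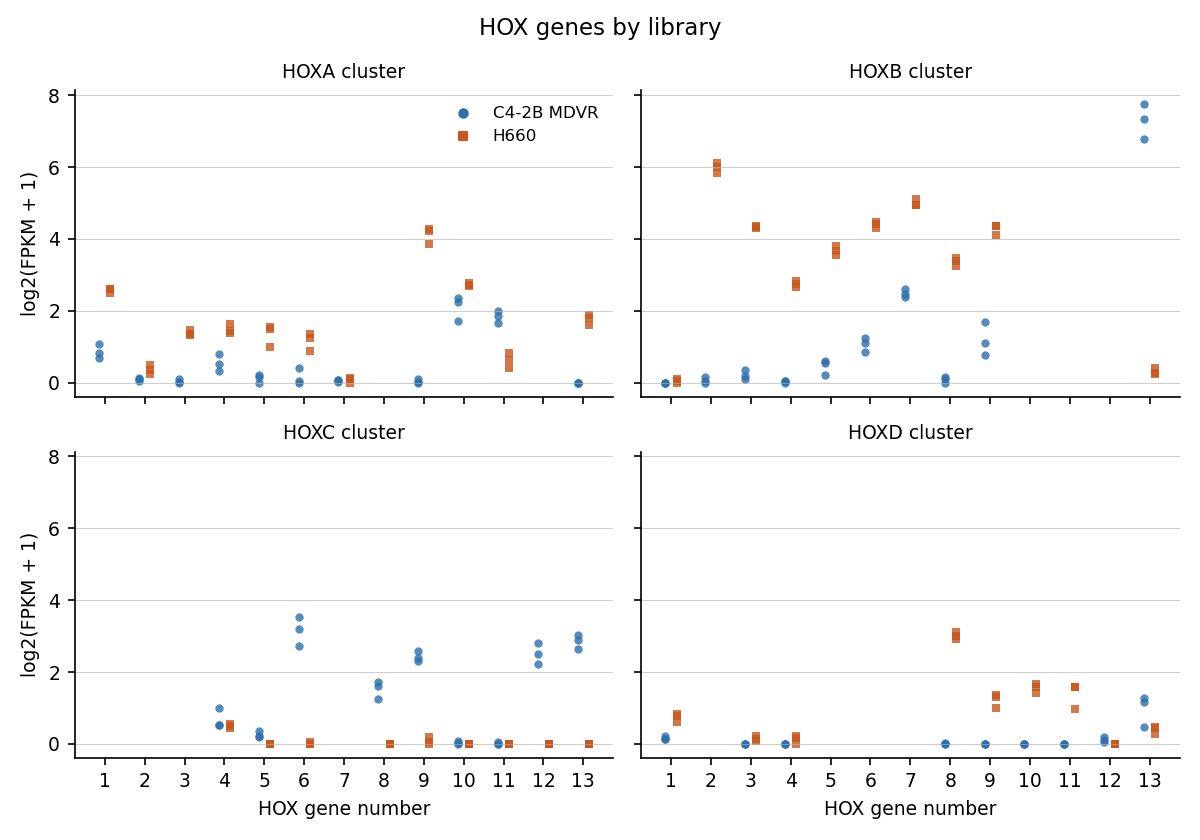
Level of each HOX gene as log2(FPKM + 1), by cluster and by HOX number from 1 to 13, 1 point per library, blue circles for C4-2B MDVR and orange squares for H660. HOXB2 to HOXB9 lie above in H660 and HOXB13 above in C4-2B MDVR, and the tested HOXC genes are near 0 in H660.

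Some genes were on in only 1 line. With a mean of at least 1 FPKM in 1 line and 0 fragments in all 3 libraries of the other, 488 genes were on in H660, of which 198 were protein-coding, and 343 in C4-2B MDVR, of which 164 were. The most abundant in H660 were CEACAM6 at 335, 309 and 282 FPKM, CEACAM5, and S100A6, a calcium-binding protein, at 127, 97.8 and 122. The most abundant in C4-2B MDVR was PAGE1, a cancer-testis antigen, at 314, 307 and 263 FPKM, and GAGE2A, LDOC1, LY6E, MAGEA1, MAGEA10, CRISP3 and RBM24 were among the 10 most abundant. Of 64 cancer-testis genes of the MAGE, GAGE, PAGE, XAGE and SSX families 20 were tested, 14 lower in H660 and 1 higher. MAGEC2 was that gene, at 15.1, 14.8 and 15.1 FPKM against 0, 0.0748 and 0.0309. Members of these families are near-identical copies, so the split of reads among them is uncertain.

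Other named genes with large differences had varied roles. PLAU, the urokinase gene, was at 461, 455 and 503 FPKM in H660 against 0.0490, 0.0842 and 0.0417 (8.81 ± 0.10). WFDC2, a secreted protease inhibitor, was at 156 ± 15.5 FPKM and the phosphate transporter SLC34A2 at 136 ± 21.8 in H660, against 0.0595 ± 0.0750 and 0.0269 ± 0.0311. SPON2, a secreted matrix protein, had the largest negative difference, with 602, 772 and 354 FPKM in C4-2B MDVR and 0.0537, 0.212 and 0.110 in H660 (−8.93 ± 0.29). The water channel AQP3 was at 85.0, 337 and 77.7 FPKM in C4-2B MDVR and at most 0.0274 in H660. GSTP1, a glutathione transferase silenced in most prostate adenocarcinomas, was at 24.9, 29.7 and 32 FPKM in H660 against 0, 0.0780 and 0.0644. NR3C1, the glucocorticoid receptor gene, was at 4.73, 6.04 and 5.44 FPKM in H660 and listed at 0 in C4-2B MDVR.

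Markers of other tissues were checked in the same way. ERG, an ETS factor that NCI-H660 expresses through a fusion with TMPRSS2, was at 6.81, 6.22 and 6.95 FPKM in H660 against 0.0953, 0.0393 and 0.0568 (2.85 ± 0.11). Of 16 genes on a list of lung-type secretory genes 7 were tested, 5 higher in H660 and 1 lower. SFTPB, a surfactant protein gene, was at 72.5, 48.0 and 49.1 FPKM and LAMP3 at 109, 98.8 and 105, but SFTPC was listed at 0 in all libraries and NAPSA had means of 0.080 and 0.12 FPKM in H660 and C4-2B MDVR. Of 28 gut and liver genes 7 were tested, 5 higher in H660 and 1 lower. The summed level of these 28 genes was 54.8 to 60.0 FPKM in H660 and 7.23 to 7.92 in C4-2B MDVR. The gut gene VIL1 was at 15.9 ± 1.55 FPKM in H660, while CDX2, HNF4A, ALB and AFP were at or near 0 in both lines. The endothelial cadherin CDH5 was at 9.93, 7.60 and 7.42 FPKM in H660 with PECAM1 at 0.015. Of 16 basal prostate genes 7 were tested, 3 higher and 1 lower. The defining basal genes KRT5 and TP63 were at or near 0 in both lines, but the keratin gene KRT15 was at 3.58 FPKM in H660 against 0.382 and was called higher, as was DLK2. Of 20 stromal, endothelial and leukocyte genes 3 were tested, CDH5 and CD14 called higher and the collagen gene COL1A1 lower, at 1.35 FPKM against 3.83. The stromal genes COL3A1 and DCN were at or near 0. The summed level of these 20 genes was 12.3 to 14.2 FPKM in H660 and 4.75 to 7.64 in C4-2B MDVR.

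Noncoding genes leaned towards H660. Of 1901 tested long noncoding genes 27.2% were higher and 14.6% lower, against 19.3% and 18.4% of protein-coding genes. COLCA1 was the largest named one, at 127, 104 and 96.5 FPKM in H660 against 0.492, 3.54 and 1.53 (5.41 ± 0.37). LINC01029 and ELFN1-AS1 were lower by −4.70 and −3.61, ELFN1-AS1 listed at 0 in H660. Strand use in the counting is not given in the sources used here, so antisense genes cannot be told apart from their partners. Of 402 tested zinc finger genes with ZNF symbols 94 were higher and 22 lower (median 0.35), beside 20.1% and 17.9% of all genes tested.

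Calls were uneven along the genome. On chromosome 22, 41.8% of 306 tested protein-coding genes were lower in H660 and 10.1% higher, with a median of −0.84. On chromosome 6, 34.0% of 655 were higher and 11.3% lower, with a median of 0.58. Chromosomes 8 and 18 had 29.9% and 28.2% higher, and chromosomes 7 and 17 had 27.0% and 26.0% lower. There were 25 runs of at least 5 neighbouring tested genes all called higher, holding 164 genes, and 29 runs called lower, holding 175 genes. The longest was 11 genes from ZNF292 to PM20D2 (chr6:87152833-89165565, GRCh38), followed by 9 genes from SKAP1 to HOXB9 on chromosome 17 and 9 from HLA-DRA to HLA-DMA in the class II region of chromosome 6. Among lower runs, 9 genes ran from CCDC136 to AHCYL2 on chromosome 7. Some genes in these runs, such as SMIM8 and AHCYL2, were near the 2-fold limit and were not called under other scalings (0.96 with quantile normalization and −0.83 without mitochondrial genes). Copy number was not measured, and its part in these patterns was not tested.

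**Figure D5:**
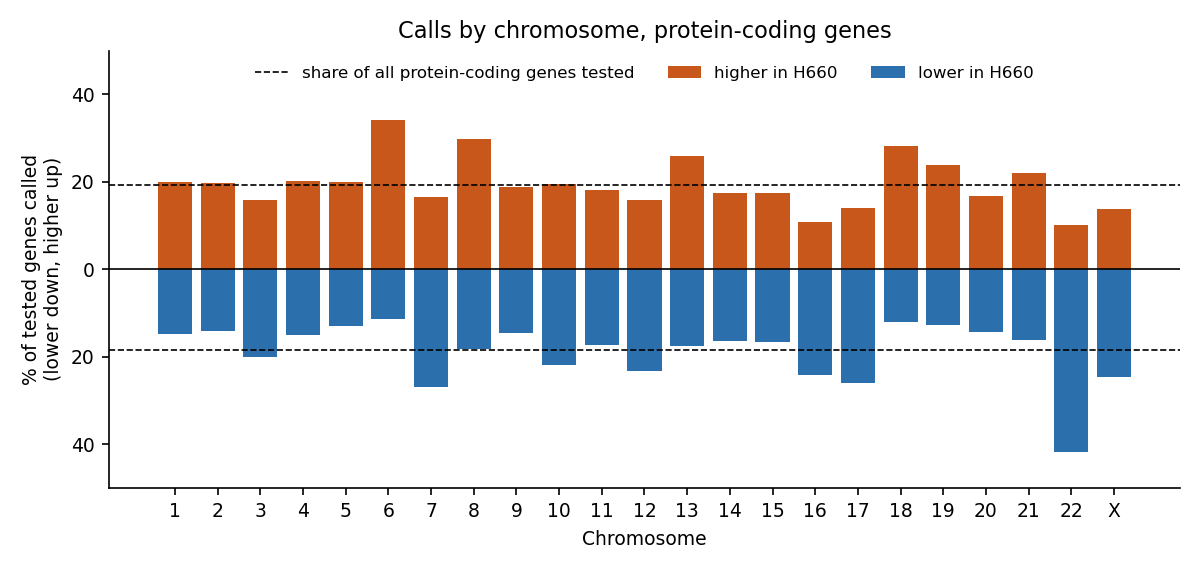
Share of tested protein-coding genes called higher (orange, upward) and lower (blue, downward) in H660 on each chromosome, in %. Dashed lines mark the shares over all protein-coding genes tested, 19.3% and 18.4%. Chromosome 22 stands out with 41.8% lower and chromosome 6 with 34.0% higher.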

How the data were processed

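Per the labels' protocols, messenger RNA from 2 cell lines with 3 siRNAs each was sequenced as paired reads of 150 bases. Per the submitters' processing notes the authors used HISAT and Cufflinks with build hg18; versions and the counting rule are not given in the sources used here. The deposited table holds the authors' FPKM of 58735 Ensembl genes, whose IDs all match GENCODE release 29, which gave names, types, exon lengths and GRCh38 coordinates, so the build named in the notes and that of the annotation differ. Here FPKM times exon length gave whole fragments (tolerance 0.05) in 100% of genes with at most 100 fragments, 11224 to 13428 genes per library, and fragment totals, floors and the voom alternative use these. A count of 0 was set against a floor of 3 fragments over the line.

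Genes with a mean of at least 1 FPKM in at least 1 line were fitted as log2(FPKM + 1) on line and treatment with limma 3.58.1 in R 4.3.3, with an intensity trend, 3 residual degrees of freedom and Benjamini-Hochberg adjustment over all 15638 genes. The fit was also run on simulated libraries that held no siRNA effect, so that run cannot show how it handles such effects. Duplicate symbols were represented by the gene ID with the highest mean.

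The members, the 32 gene lists, the 56 symbol families and the tests were chosen with earlier results of these data known, so lists are described by counts and medians and not tested. Named genes were a fixed set of 14 identity genes, the 15 largest differences each way among called protein-coding genes whose libraries do not overlap, the 8 largest transcription factors and 4 largest noncoding genes each way, up to 4 called members each way of each list and family, further list members with their values, the 10 most abundant genes per line, the 10 most abundant genes on in 1 line only, and the 5 longest runs each way. MYCL, FOXA1, MKI67, CPE, NDRG1, HLA-E and a few other list members were named after their values were seen. Some genes that this rule names are not reported here. Promoter sequences are from RefSeq (GRCh38.p14).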

Additional observations from a re-analysis of the deposited data

How the results depend on the processing

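A stricter filter (mean of at least 5 FPKM in a line) left 9384 genes, of which 1776 were higher and 2020 lower. At that filter the median of the collagen family turned from −1.02 to 1.63, with fewer genes tested. Requiring 5 FPKM in the expressing line left 73 genes on in C4-2B MDVR only (343 at 1 FPKM) and 106 in H660 only (488 at 1 FPKM). Runs of at least 4 genes numbered 63 higher and 53 lower, against 25 and 29 of at least 5. Without each library in turn, 3105 to 3175 genes were higher and 2718 to 2912 lower. Calls split as 52.9% higher in the fit as reported, 47.4% with quantile normalization, 58.1% without short RNAs, 64.7% without mitochondrial genes and 59.1% with voom. The medians of the Notch, YAP and TEAD, tumour suppressor, P450, glutathione transferase, annexin, metallothionein, noncoding and insulin-like growth factor sets changed sign under at least 1 of these scalings. Same-numbered libraries share the siRNA but did not deviate together between the lines (correlation −0.0043), and the labels name no shared batch or day, so they were not taken as pairs. In a fit that takes this number as a block, 3162 genes were higher and 2831 lower, including all 5946 genes called as reported. At this depth a gene listed at 0 is bounded by its floor alone.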
